A study of Mus musculus with 12 samples.

Results

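The regions described here are stretches of mouse chromatin that carried a peak of H2AK119ub, the mono-ubiquitinated form of histone H2A, with each of 3 truncated ASXL1 proteins and none with the empty vector. They were selected on the peak lists themselves. The intervals of 4 deposited H2AK119ub lists on chromosomes 1 to 19, X and Y were merged where they overlapped by 1 base, and a merged region was kept if it held a peak in each construct list and none in the vector list. Of 72244 merged regions, 2328 (3.22%) met this rule. Because presence and absence of these peaks chose the regions, their peak values in the 4 libraries are given as description, with no test. "Gained" below means listed with every construct and not listed with vector. It is not a measured rise in the mark.

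The study profiled c-Kit+ bone marrow cells of mice, labelled as hematopoietic stem and progenitor cells of the genotype "mock". All cells received a retrovirus for BAP1. In the first set they also received empty vector, ASXL1 residues 1 to 590 (1-590), or that fragment as 10RA, which the labels call condensation-impaired, or as 25RA, which they call condensation-defective. A second set, with its own vector, carried ASXL1 residues 1 to 1067 (1-1067) or its charge-neutralized variants 34DN and 36EQ, and 4 ChIP-seq libraries mapped BAP1 or ASXL1 with 1-590 and 10RA. The mark was profiled by CUT&RUN, where an antibody-bound nuclease cuts out marked chromatin for sequencing. Each condition was 1 library, so no value below has a replicate error, and the labels name no animal or pool. What "mock" means for the cells' own Asxl1 and Bap1 is not given in the sources used here. The deposited peaks of 25RA, 34DN and 36EQ carry internal names that do not spell out these variants, so their assignment rests on the sample titles. Promoter peaks of a chromatin mark do not measure cell identity, so the cell label could not be checked: promoters of the progenitor genes Kit, Cd34 and Flt3 held a peak in all 4 libraries of the first set, as did the erythroid gene Klf1 and the stromal gene Cxcl12, and 7 of 22 marker promoters, among them Ptprc and Mpo, held none.

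H2AK119ub is written by Polycomb repressive complex 1 and is found at CpG-rich promoters of silenced developmental genes, where Polycomb complexes also read it. BAP1 is the deubiquitinase that removes the mark, and ASXL1 is the partner that activates BAP1. Truncating ASXL1 mutations, common in myeloid neoplasms, leave fragments that keep the BAP1-binding part of the protein.

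Sequence at the strongest gained regions is shown first because CpG content is the feature by which they can be set against other H2AK119ub regions. Each line gives 300 bases centred on the summit of the 1-590 peak, from the GRCm39 (mm39) plus strand, with every CG dinucleotide in capitals. The first 4 are the gained promoter regions with the highest lowest-of-3 fold, followed by the strongest in an intron and the strongest between genes. They were read from the GRCm39 reference genome.
Sem1, chr6:6578340-6578639: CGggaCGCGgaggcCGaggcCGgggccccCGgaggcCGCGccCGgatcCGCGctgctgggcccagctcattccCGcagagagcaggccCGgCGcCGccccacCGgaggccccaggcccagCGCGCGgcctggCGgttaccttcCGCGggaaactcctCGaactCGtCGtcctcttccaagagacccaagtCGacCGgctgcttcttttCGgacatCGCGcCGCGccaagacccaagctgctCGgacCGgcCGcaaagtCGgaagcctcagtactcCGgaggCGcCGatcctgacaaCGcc
Acbd5, chr2:22959097-22959396: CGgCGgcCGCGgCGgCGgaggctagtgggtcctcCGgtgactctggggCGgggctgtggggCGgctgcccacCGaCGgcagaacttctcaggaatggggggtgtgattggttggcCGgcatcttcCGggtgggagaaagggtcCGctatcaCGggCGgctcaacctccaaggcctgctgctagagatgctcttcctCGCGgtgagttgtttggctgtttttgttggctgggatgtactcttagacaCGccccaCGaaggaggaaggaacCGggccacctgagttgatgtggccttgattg
Phkg2, chr7:127172257-127172556: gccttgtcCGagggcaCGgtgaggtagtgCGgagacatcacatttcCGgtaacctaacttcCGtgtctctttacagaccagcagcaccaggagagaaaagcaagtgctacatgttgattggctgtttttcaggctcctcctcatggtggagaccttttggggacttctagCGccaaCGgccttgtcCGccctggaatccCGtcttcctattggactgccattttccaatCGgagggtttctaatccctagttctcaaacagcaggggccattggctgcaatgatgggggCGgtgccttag
Tmem134, chr19:4175676-4175975: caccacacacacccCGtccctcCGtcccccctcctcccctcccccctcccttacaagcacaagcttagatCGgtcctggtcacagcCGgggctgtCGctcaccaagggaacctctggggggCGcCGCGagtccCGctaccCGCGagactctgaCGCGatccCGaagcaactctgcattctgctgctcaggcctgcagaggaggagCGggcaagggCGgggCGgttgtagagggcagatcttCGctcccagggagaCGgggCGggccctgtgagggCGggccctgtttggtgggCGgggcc
Mrps27, chr13:99489680-99489979: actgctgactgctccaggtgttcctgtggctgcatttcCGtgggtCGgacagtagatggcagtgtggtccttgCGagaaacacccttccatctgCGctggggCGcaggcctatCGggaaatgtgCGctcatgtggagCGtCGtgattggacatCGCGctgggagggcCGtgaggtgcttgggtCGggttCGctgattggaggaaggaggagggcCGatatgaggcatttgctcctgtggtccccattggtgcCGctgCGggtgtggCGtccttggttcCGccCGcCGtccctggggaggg
near Rhou, chr8:124344201-124344500: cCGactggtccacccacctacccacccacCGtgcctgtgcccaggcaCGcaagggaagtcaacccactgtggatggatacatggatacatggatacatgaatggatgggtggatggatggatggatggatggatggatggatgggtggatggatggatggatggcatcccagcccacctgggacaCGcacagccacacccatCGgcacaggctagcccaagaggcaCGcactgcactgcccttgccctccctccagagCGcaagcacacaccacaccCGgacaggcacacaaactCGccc
These windows differ widely in CG number. Sem1 held 40 CG dinucleotides, Tmem134 held 22, Acbd5 and the Mrps27 intron held 21 each and Phkg2 held 11. The window near Rhou held 9 and contains runs of a short repeat. The 32-base words of that region occurred a median of 49 times in the genome, and those of the region near Gas8, on the same chromosome, 46 times. Such words occurred once at the median in the other 5 printed regions. Over all gained regions the median count exceeded 1 in 26 of 2328 (1.12%, 95% Wilson interval 0.763 to 1.63), against 57 of 6423 (0.887%) of the regions listed in all 4 libraries. Intervals here and below cover counting error only.

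**Figure D1:**
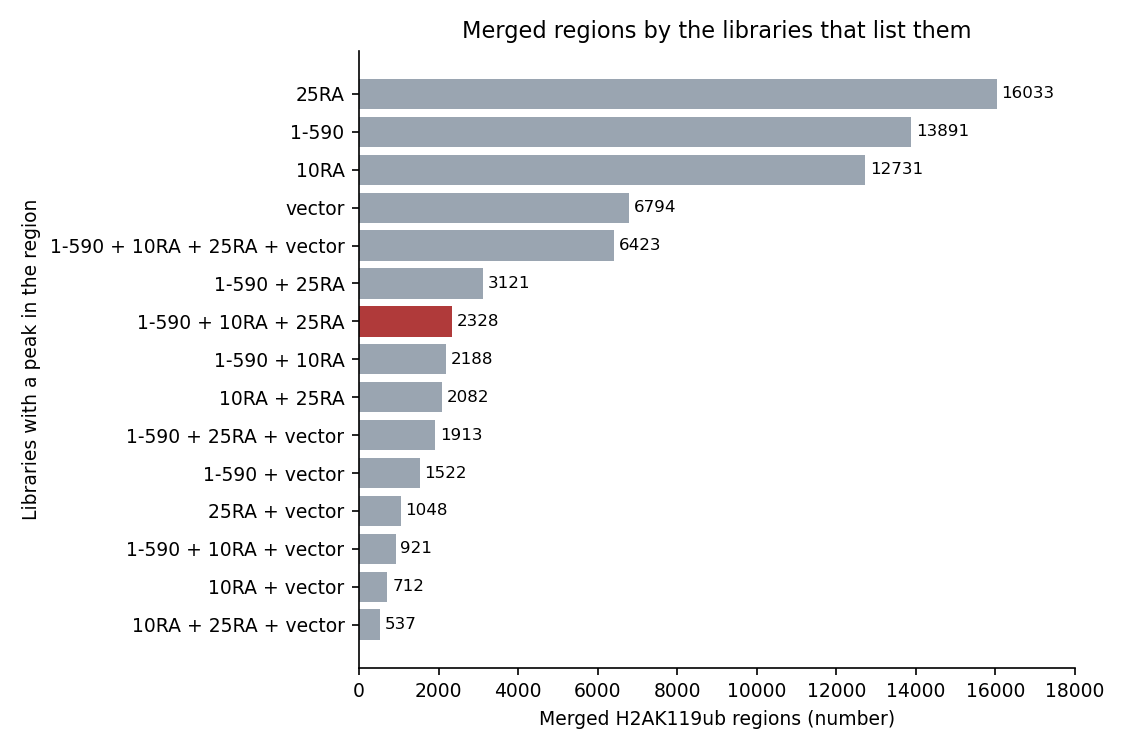
Bars give the number of merged H2AK119ub regions (horizontal axis) for each combination of libraries that list the region (vertical axis). The gained regions, in red, number 2328, fewer than the 6423 listed in all 4 libraries and the 12731 to 16033 listed with a single construct.

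Peaks in the gained regions were moderate in height with every construct. The authors' fold enrichment, fragments plus 1 over local background plus 1 at the summit, had a median of 3.31 (range 1.80 to 13.5) with 1-590, 3.30 (1.92 to 10.6) with 10RA and 3.26 (1.92 to 14.0) with 25RA. In the 6423 regions listed in all 4 libraries the medians were 4.70, 3.90 and 4.02. Summits of the gained regions held a median of 23 fragments with 1-590, 18 with 10RA and 20 with 25RA. Their peaks passed q of 0.05 in 98.6%, 96.0% and 97.7% of cases, respectively, although the lists themselves reach p of 0.001. This was near the share of all peaks in the 3 lists, 96.0%, 91.1% and 94.1%. In the regions of all 4 libraries it was 99.8%, 98.5% and 99.3%. Median width was 554 bases, against 723 for the regions of all 4 libraries and 250 for the 6794 regions of vector alone.

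Within a region the summits of the 3 constructs lay close together. The median distance was 91 bases between 1-590 and 10RA, 88 between 1-590 and 25RA and 89 between 10RA and 25RA. Spearman's rho of the fold across the 2328 regions was 0.577 for 1-590 with 10RA, 0.567 for 1-590 with 25RA and 0.562 for 10RA with 25RA. These are descriptions across regions that share base composition and the rule that chose them.

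The vector library was the shallowest. By the lowest local background among its peaks, vector had 0.908 fragments per base, 1-590 had 2.06, 10RA 1.72 and 25RA 1.86, and the construct backgrounds were 2.27, 1.90 and 2.05 times the vector's. At its own background the vector library needed 5 fragments for a call, or 5.51 times background, whereas 1-590 needed 8, or 3.88 times. If the summit fragments of the gained regions are thinned to the vector's depth, the computed chance of a call at p of 0.001 averages 69.8% for the 1-590 summits, 71.2% for 10RA and 69.0% for 25RA. A call in all 3 at that depth would be expected in 835.2 of the 2328 regions (35.9%), and in 63.6% of the regions listed in all 4. For 37 gained regions the chance was under 0.5 with every construct. Depth and absence of a vector peak move together here, and lower H2AK119ub with vector and lower depth of that library cannot be told apart region by region.

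Recorded calls in the vector list can be set beside that computed chance. Among all regions with a 1-590 peak, those whose chance lay between 0.5 and 0.75 were listed in vector in 21.5% of cases, those between 0.75 and 0.9 in 40.7%, those between 0.9 and 0.99 in 66.6% and those above 0.99 in 92.2%. In each of these bands the recorded share was below the computed chance, so that chance overstates how often vector listed such a region. The gained regions with a 1-590 chance above 0.99 numbered 103 of 2947, and those between 0.9 and 0.99 numbered 442 of 4261. The same rise was seen for the 10RA and 25RA peaks.

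**Figure D2:**
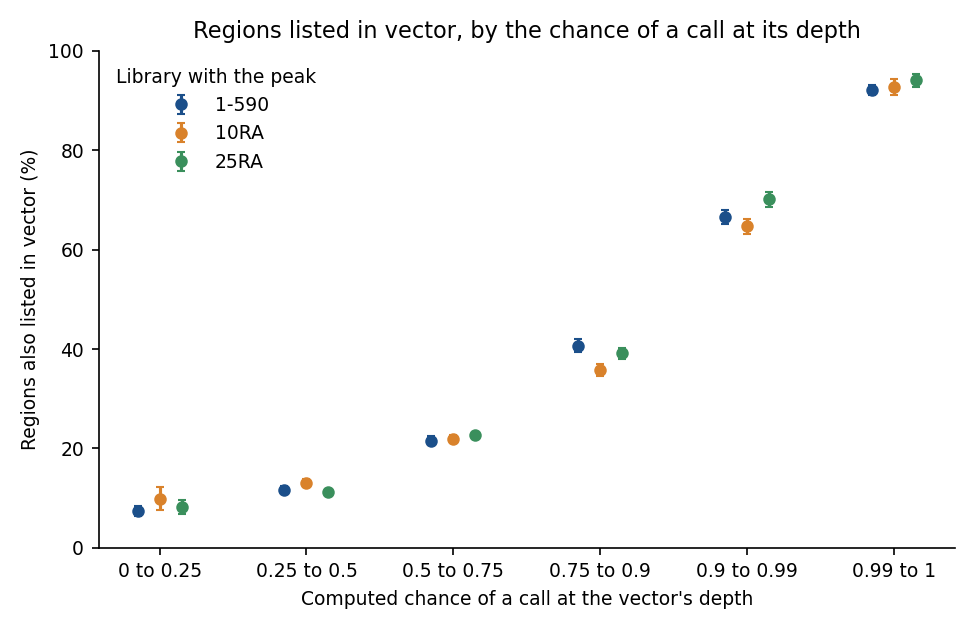
Points give the share of regions with a construct peak that were also listed in vector (vertical axis, with 95% Wilson intervals), by the computed chance of a call at the vector's depth (horizontal axis) and by construct (colour). With 1-590 the share rises from 7.36% below a chance of 0.25 to 92.2% above 0.99.

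In 65 of the gained regions (2.79%) the chance was 0.9 or more with all 3 constructs, and 38 of those lay at promoters. Among regions listed in all 4 libraries this was so for 1812 of 6423 (28.2%). The gained subset of 65 was chosen after the values were seen. It holds promoters of Arid2, a subunit of a SWI/SNF remodelling complex, Phf23, a PHD finger protein, Ddb2, which recognises ultraviolet damage in DNA, and Fst, the activin antagonist follistatin. Cpt2 of mitochondrial fatty acid oxidation, Fdps of isoprenoid synthesis, the proteasome ATPase gene Psmc4 and the axon guidance receptor gene Unc5b are there too. At the Psmc4 promoter the fold was 7.13 with 1-590, 4.38 with 10RA and 5.95 with 25RA, and the nearest vector peak lay 33383 bases away. At Arid2, Fst and Phf23 a vector peak was closer, at 588, 628 and 1229 bases.

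Gained regions lay at widely varied distances from vector peaks, and some adjoined one. These distances were not computed for other groups of regions or random positions, so they show neither isolation from vector peaks nor closeness to them. The median distance to the nearest vector peak was 14317 bases, and 1379 regions (59.2%) lay more than 10000 bases away. Another 249 (10.7%, 9.5 to 12) lay within 1000 bases of a vector peak, 152 of them at promoters. The closest were at Rnpep (8 bases), which encodes an aminopeptidase, Cd83 (12 bases), an activation antigen of dendritic and lymphoid cells, Atg12 (27 bases), an autophagy conjugation protein, a site near Cr2 (30 bases) and Akain1 (33 bases).

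At the edge of the rule, the weakest construct peak of a gained region had a -log10 p of 3.01 in an intron of Pde10a, 3.03 near Zfp386, 3.04 at the Zc3h10 promoter, 3.05 in an intron of Cerkl and 3.06 in an exon of Fyco1. Just outside it, the regions of all 4 libraries with the weakest vector peak had a vector -log10 p of 3.0 at Cnpy2, 3.0 at Scap, 3.02 at Tmeff1, 3.04 near C1qa and 3.06 at Cep250. The vector summit held 8 fragments at Cnpy2 and 6 at Tmeff1.

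By genomic position the gained regions were split between promoters and the rest. A promoter window, reaching 2 kb up- and downstream of a protein-coding start, held the midpoint of 1066 regions (45.8%, 43.8 to 47.8). Exons held 187 (8.03%), introns 436 (18.7%) and the space between genes 639 (27.4%). The promoter share was 74.3% (73.2 to 75.4) in the regions listed in all 4 libraries, 61.5% in those missing only from 10RA, 53.1% in those missing only from 25RA and 30.5% in those missing only from 1-590. It was 10.9% in the regions of vector alone and 23.0% in all 72244, and promoters cover 3.01% of the genome. The gained regions thus lay between the regions of all 4 libraries and the whole, with intervals that do not overlap theirs. Chromosome 11 held the most per length, 203 regions or 1.66 per Mb. This was 8.72% of the gained regions, against 7.42% of all merged regions and 8.38% of those listed in all 4. Chromosome X held 59, or 0.348 per Mb, and chromosome Y none. The X share was 2.53% of the gained regions, 4.14% of all and 1.34% of those listed in all 4.

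Around the start site the promoter regions sat mostly inside the transcribed side. The 1-590 summit was downstream of the nearest start in 74.4% of the 1066 regions, and 378 (35.5%) had it in the first 250 bases. Its median absolute distance was 237 bases, against 149 in the promoter regions of all 4 libraries, where 67.9% were downstream.

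CpG content was lower than at the regions all 4 libraries listed and higher than over all merged regions. In about 1 kb at the midpoint, the observed over expected CpG ratio had a median of 0.450 in the gained regions (quartiles 0.215 and 0.685), against 0.720 (0.558 and 0.832) in the regions of all 4 and 0.229 in all 72244. It was 0.642 in regions missing only from 10RA, 0.560 in those missing only from 25RA and 0.280 in those missing only from 1-590. At promoters the gained and all-4 medians were 0.674 and 0.763, and outside promoters 0.246 and 0.361. A ratio of 0.6 or more, a usual criterion of a CpG island, was reached by 63.4% (60.5 to 66.3) of the gained promoter regions, 85.1% (84.0 to 86.0) of those listed in all 4 and 59.1% of all promoter regions. Outside promoters it was reached by 10.5%, 27.9% and 3.01%. Width differs with these groups, and its part in the CpG difference was not tested.

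**Figure D3:**
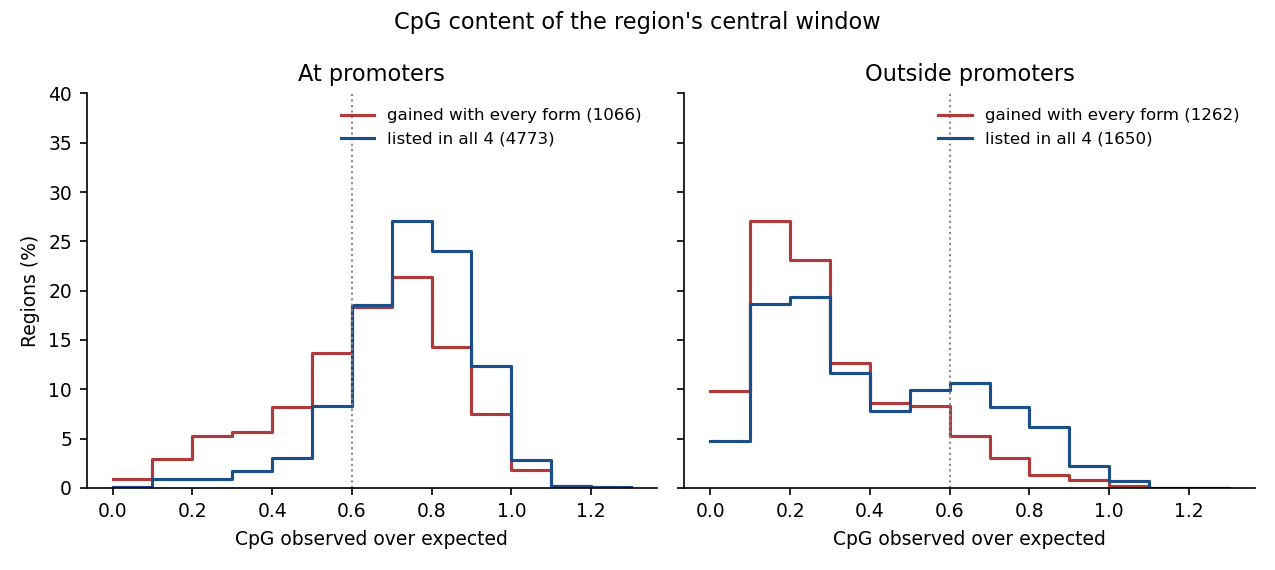
Lines give the share of regions (vertical axis) in each step of the observed over expected CpG ratio (horizontal axis), at promoters and outside them. The dotted line marks 0.6, which 63.4% of the gained and 85.1% of the all-4 promoter regions reach.

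Short motifs were counted in 300 bases at the 1-590 summit, on both strands. The SP1 core GGGCGG occurred in 53.5% (50.5 to 56.4) of gained promoter regions and 69.3% of the all-4 promoter regions. It occurred in 58.5% of every promoter region with a 1-590 peak. In windows centred on 1 canonical start site per protein-coding gene it occurred in 46.8%. For the NFY core CCAAT these shares were 24.5%, 34.3%, 29.6% and 37.7%. The ETS site CCGGAAGT gave 3.56% (2.61 to 4.85), 6.31%, 5.25% and 4.81%. Outside promoters, the AP-1 site TGACTCA occurred in 8.0% of gained regions, 8.12% of all-4 regions and 8.31% of every region with a 1-590 peak. The RUNX core TGTGGT gave 23.7%, 22.8% and 26.3% there. For the GATA core AGATAA the shares were 8.16% (6.78 to 9.8), 8.12% and 11.0% (10.5 to 11.4), and the first and last intervals do not overlap. The same holds there for the NFY core, at 25.1% (22.8 to 27.6), 25.9% and 28.3% (27.7 to 28.9). Outside promoters, median GC content was 52.1% in gained regions, 54.6% in all-4 regions and 48.5% in all merged regions. The part of base composition in the motif shares was not tested. None of these strings contains another, and a match marks letters only.

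The strongest promoter regions belonged to genes of varied function. Ranking was by the lowest of the 3 folds, so a region needed support from every construct. Sem1, a small protein of the proteasome lid and of BRCA2, had a fold of 7.17 with 1-590, 5.88 with 10RA and 6.0 with 25RA, on 22, 15 and 17 summit fragments. Acbd5, a peroxisomal acyl-CoA binding protein, had 7.45, 6.07 and 5.65. At Phkg2, a catalytic subunit of phosphorylase kinase, the folds were 8.16, 5.59 and 6.08, and the nearest vector peak was 14972 bases away. The Tmem134 region was even across the constructs, at 5.79, 5.11 and 5.75.

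Signalling and cell division genes were among the other 8 of the leading 12. Ctnnbip1, an inhibitor of the beta-catenin and TCF interaction, had folds of 5.07, 4.95 and 5.47 with 1-590, 10RA and 25RA. The bZIP factor gene Crebl2 had its highest value with 1-590, 8.5, against 5.57 and 4.92. Ccnb2, a cyclin of mitosis, had 5.19, 5.51 and 4.90 on only 17, 14 and 13 fragments, and its nearest vector peak lay 118284 bases away. Asxl3, a paralogue of Asxl1, had 4.83, 5.35 and 5.27, but a vector peak stood 899 bases from that region. The remaining promoters were those of Gpr137b, Smim8, Itgb8 and the shared promoter of Exosc8 and Alg5. In the Gpr137b region the 32-base words occurred a median of 2 times in the genome.

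**Figure D4:**
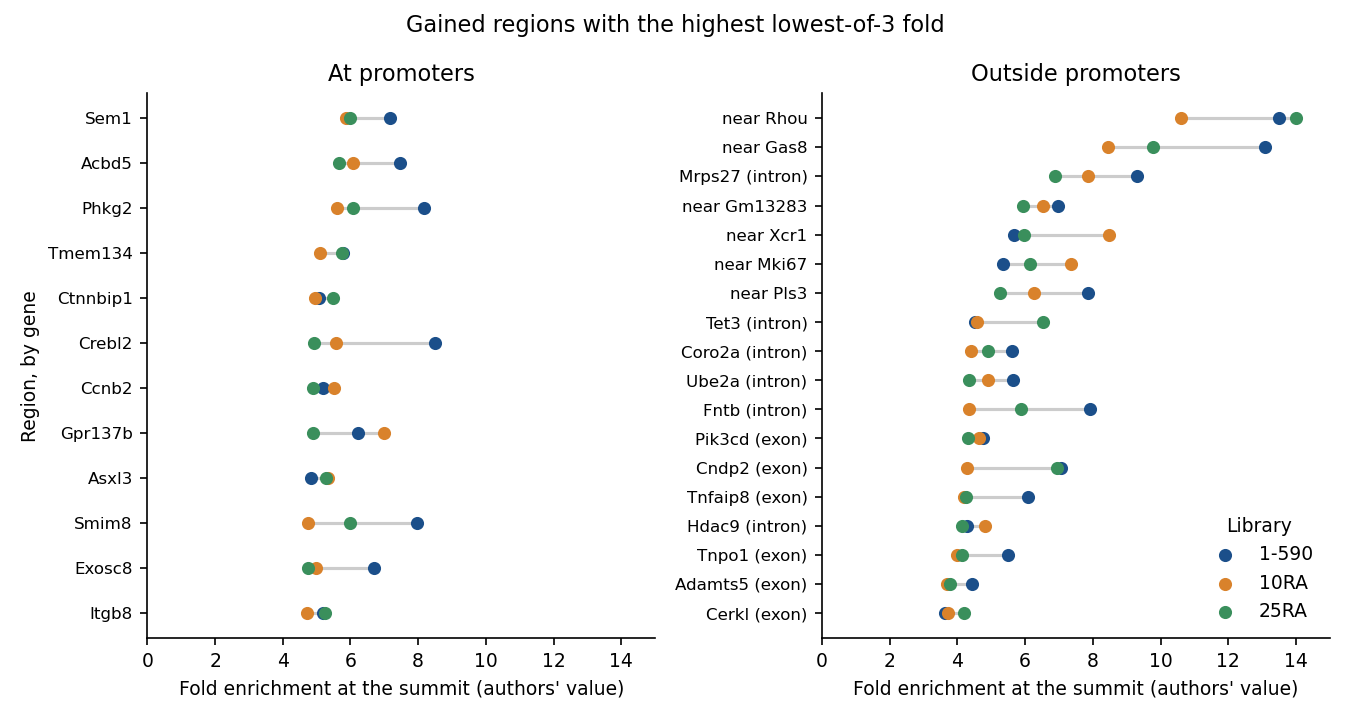
Points give the authors' fold enrichment at the summit (horizontal axis) in each construct library (colour) for the 12 gained promoter regions and the 6 each in exons, introns and between genes with the highest lowest-of-3 fold (vertical axis). Promoter regions lie between 4.73 and 8.5, while the regions near Rhou and Gas8 reach 14.0 and 13.1.

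By the lowest of the 3 folds, the leading regions of all 2328, near Rhou and Gas8, were in repeated sequence. The region near Rhou had 13.5 with 1-590, 10.6 with 10RA and 14.0 with 25RA, and a vector peak lay 159 bases from it. That near Gas8 had 13.1, 8.45 and 9.79. A site near Gm13283, whose words occurred a median of 14 times, had 6.96, 6.53 and 5.95. The part of repeat copies in these folds was not tested.

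Among regions of single-copy sequence outside promoters, the one in an intron of Mrps27, a mitochondrial ribosomal protein gene, led with 9.30, 7.86 and 6.87 on 41, 26 and 29 fragments. It lies 8571 bases upstream of the start of Ptcd2. An intron of Tet3, which encodes a DNA demethylase, had 4.52, 4.57 and 6.54 and a low CpG ratio of 0.123. The intron of Hdac9, a class II histone deacetylase, had 4.29, 4.81 and 4.14. In exons, Pik3cd, the leukocyte catalytic subunit of PI3 kinase, had 4.74, 4.64 and 4.32, and Tnpo1, a nuclear import receptor, had 5.50, 3.99 and 4.14. A site 19683 bases upstream of Mki67, the proliferation antigen, had 5.34, 7.36 and 6.15 and met a peak in 3 of the 4 libraries of the 1-1067 set.

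The widest gained regions included 3 at genes of chromatin or developmental regulation. The 6 widest lay at the promoters of Hmga2, an architectural chromatin protein (2193 bases), Foxd2, a forkhead factor (2118 bases), B3gat2 (1649 bases), Sall2, a zinc finger factor (1629 bases) and Amph (1608 bases), and in an exon of Cdh23, a cadherin of hair cells (2179 bases). At Hmga2 the folds were 3.18, 3.02 and 3.0 with 1-590, 10RA and 25RA, with a vector peak 402 bases away. B3gat2 had 3.85, 4.79 and 5.06.

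A few genes held 3 or more gained regions in or within 2 kb of the gene. At Evx2, a homeobox gene beside the HoxD cluster, the 3 regions lay side by side across the promoter and had lowest folds of 1.91, 2.14 and 2.44, near vector peaks 596 to 2033 bases away. Coro2a, Carmil1, Mast4, Ocln and Unc45b had 3 each, with those of Mast4, Carmil1 and Unc45b all inside the gene body. Fgfr2 is annotated with 7 over 2961609 bases, a span that also takes in Tacc2, Hmx3, Hmx2 and Ctbp2, and 1 of the 7 was at its own promoter, with folds of 3.15, 2.79 and 2.62. Annotated models of the Pcdhg cluster share 3 regions, and the readthrough model Gm37240 held 4.

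In all, 1127 of 21738 protein-coding genes (5.18%) had a gained region at the promoter. A vector peak stood elsewhere in the same promoter for 216 of them (19.2%, 17.0 to 21.6), and 911 had none. Of the genes with a CpG ratio of 0.6 or more at the start site, 7.54% (7.05 to 8.07) had a gained region, and of the others 3.03% (2.73 to 3.37). Regions of all 4 libraries were at 43.0% and 7.62% of the same genes. The counts for gene lists below are read against 5.18%, and with 1 to 7 genes a list they are descriptions only. The lists were not matched to all genes in CpG content, so for a CpG-rich list 7.54% may be the nearer reference.

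Transcription factors of hematopoietic stem cells and leukaemia had a gained promoter region in 3 of 25 genes. Gfi1, a repressor that restrains stem cell division, had folds of 2.61, 2.54 and 2.55 with 1-590, 10RA and 25RA, on 60, 29 and 32 fragments. Hoxa9, which sustains self-renewal, had 2.29, 2.28 and 2.57, and its region lay 1841 bases into the gene. Myc, the growth regulator, had 3.09, 3.75 and 3.30, but its region lay 1940 bases downstream of the start and 51 bases from a vector peak.

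Of 36 genes mutated in myeloid malignancy, 4 had a gained promoter region, and 13 had a region listed in all 4 libraries. Calr, a chaperone of the endoplasmic reticulum, had 7.17, 4.10 and 5.30 at its start site. Sf3b1, a splicing factor, had 5.90, 3.99 and 5.48, and the kinase gene Jak2 had 4.48, 3.90 and 3.83 on 23, 13 and 16 fragments. The region at the shared start of Wrap53 and Trp53, the p53 tumour suppressor, had 6.24, 4.2 and 3.85, and the nearest vector peak was 49464 bases off. With Trp53, Cdkn2a made up the 2 of 18 cell cycle inhibitors and tumour suppressors, and its folds were 3.36, 2.88 and 2.45.

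Among Polycomb genes, Cbx7 and Jarid2 carried a gained region, and at both a vector peak stood within the same promoter. Jarid2, a partner of Polycomb repressive complex 2, had folds of 2.30, 3.61 and 2.95. Cbx7, a chromodomain reader, had 2.76, 2.54 and 3.13. Asxl3 was the 1 of 16 genes of the BAP1 list, and Nsd2 the 1 of 28 other chromatin writers and erasers.

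Among developmental genes, 7 of 40 regulators of other lineages (17.5%, 8.75 to 31.9) and 5 of 39 Hox genes (12.8%, 5.60 to 26.7) had a gained promoter region. Regions of all 4 libraries were at 22.5% and 25.6% of these lists, against 24.5% of all genes. The regulators were Dlx5, Gata4, Gata6, Nkx2-1, Pax2, Sox2 and Tbx1, and Pax2 and Sox2 also had a vector peak in the promoter. Gata4 and Tbx1 had folds below the gained medians on many fragments: Gata4 had 2.37, 2.71 and 3.0 on 39, 38 and 37 fragments, and Tbx1 had 2.28, 2.5 and 2.05 on 51, 46 and 36. Of the Hox genes Hoxa9, Hoxa11, Hoxb1, Hoxc4 and Hoxd1, the highest fold was 4.17, of Hoxd1 with 25RA. Hoxc4 stood 514 bases from a vector peak.

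Genes of growth and housekeeping had gained promoter regions singly or by a few. Many more of them held a region listed in all 4 libraries. That share ran from 25.0% in the mitochondrial ribosome list to 57.1% in the splicing and oxidative phosphorylation lists, against 24.5% of all genes. Ribosome biogenesis had Fbl, Ngdn and Utp3 of 28, and Ngdn reached 9.45 with 1-590 against 3.83 and 4.88. Translation had Cars1, Eif4g1, Iars1 and Rars1 of 28, the mitochondrial ribosome Mrps2, Mrps9 and Mtif2 of 28, and vesicle transport Chmp4b, Cog1 and Stam of 30. Stam, an endosomal sorting protein, had 9.31, 4.41 and 5.95 at its start site. Splicing had Sf3b1 and Srsf1 of 28, oxidative phosphorylation Ndufa9 and Uqcrfs1 of 28, and the proteasome and ubiquitin list Psmc4 and Ube2h of 31. Mrps2 shares its region with Pierce1, and Rpl7, the 1 of 40 ribosomal protein genes, shares its region with Rdh10.

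Further lists held 0 to 2 genes. The cell cycle list had Bub1b and Ccnb2 of 28, replication and repair Fancd2 of 30, JAK-STAT signalling Jak2 of 26, interferon-stimulated genes Usp18 of 19 and autophagy Atg12 of 19. None of 22 myeloid differentiation genes had one, with a Wilson interval reaching 14.9%, and 11 of those 22 had no H2AK119ub peak in any library of the set. Of 22 cell type markers only the lymphoid gene Rag1 had one, at 2.59, 3.05 and 3.53.

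The second set tests none of the constructs that chose the regions, and few of the regions met its peaks. A peak of 1-1067 met 136 of the 2328 regions (5.84%, 4.96 to 6.87), against 3.34% of all 72244 merged regions. For 34DN the share was 3.87% (3.16 to 4.73) against 2.30%, for 36EQ 5.54% (4.68 to 6.55) against 3.09%, and for the vector of that set 5.50% (4.64 to 6.5) against 2.90%. These excesses differ with position. At promoters, which hold 45.8% of the gained regions and 23.0% of all, the gained regions met 1-1067 in 5.63% (4.4 to 7.18) against 7.85% of all promoter regions, 34DN in 4.5% (3.41 to 5.92) against 5.94%, 36EQ in 5.91% (4.65 to 7.49) against 7.58% and vector in 5.72% (4.48 to 7.28) against 6.55%. Gained promoter regions were thus at or below all promoter regions, and the vector interval takes in their share. Outside promoters the gained regions were above, at 6.02% against 1.99% for 1-1067, 3.33% against 1.21% for 34DN, 5.23% against 1.74% for 36EQ and 5.31% against 1.81% for vector. In the regions of all 4 libraries of the first set, over every position, the shares were 16.7%, 12.8%, 16.4% and 13.9%. Outside promoters these regions were also above the gained regions, at 12.2%, 8.91%, 11.3% and 10.0%. For 1-1067 outside promoters, regions missing only from 10RA gave 8.41%, those missing only from 25RA 7.87% and those missing only from 1-590 3.22%. The vector of the second set therefore met the gained regions about as often as 1-1067 and 36EQ, with overlapping intervals. Lists of the second set are short, 5307 to 6310 peaks against 20124 to 33863 in the first, and the part of this length in the shares was not tested. Region width also differs. Outside promoters its median was 536 bases in gained regions, 641 in those of all 4 libraries and 284 over all merged regions. The part of width in the shares was not tested either.

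Region by region, 1987 of the 2328 met no peak of the second set and 9 met all 4 lists. Another 213 met a construct peak and not the vector of that set, and 5 of these met all 3 constructs. By contrast, 63 met the vector alone. The 9 lay at the promoters shared by Qpctl and Snrpd2, Proser3 and Hspb6, Prrg2 and Nosip, Odad1 and Emp3, and Tmem256 and Nlgn2, and between genes near Lrrc4c, Myo9b, Irf2bpl and Fcgr3. Each of the 5 promoters serves a pair of genes. Over the 1066 promoter regions, 7.04% covered more than 1 gene's promoter, against 12.7% of the promoter regions listed in all 4 libraries of the first set. The Qpctl and Snrpd2 region had folds of 7.94, 4.23 and 5.30 on 65, 26 and 31 fragments. Of the 9 regions, those near Lrrc4c and Fcgr3 held sequence words with a median of 2 copies in the genome, and the rest had a median of 1.

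**Figure D5:**
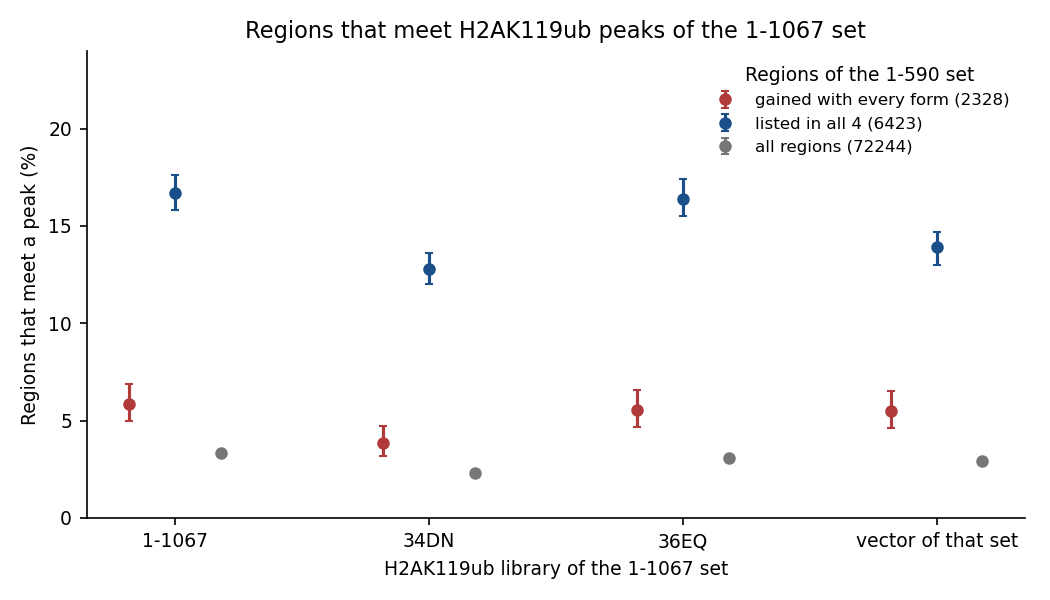
Points give the share of regions of the 1-590 set that meet an H2AK119ub peak (vertical axis, with 95% Wilson intervals) of each library of the 1-1067 set (horizontal axis), for the gained regions, the regions of all 4 libraries and all merged regions. Gained regions lie between 3.87% and 5.84%, above all merged regions and below the regions of all 4 libraries, but at promoters alone they lie below all promoter regions (for 1-1067, 5.63% against 7.85%).

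BAP1 and ASXL1 ChIP peaks were rare in the gained regions. The sample descriptions name BAP1 and ASXL1 antibodies, while the protocol names HA, the tag on the precipitated protein. The BAP1 peaks of 1-590 met 4 regions (0.172%, 0.0668 to 0.441, against 0.0858% of all merged regions) and those of 10RA met 9 (0.387%, 0.204 to 0.733, against 0.296%). ASXL1 peaks met 15 with 1-590 (0.644%, 0.391 to 1.06, against 0.490%) and 8 with 10RA (0.344%, 0.174 to 0.677, against 0.177%). With every listed peak counted, all 4 intervals take in the share of all merged regions.

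Peaks of q 0.05 or less in a ChIP list met 11 gained regions. At that limit ASXL1 peaks with 1-590 met 11 (0.473%, 0.264 to 0.844, against 0.176% of all merged regions) and with 10RA 7 (0.301%, 0.146 to 0.619, against 0.0914%), and both intervals lie above the share of all regions. BAP1 peaks met 4 with 1-590 (0.172%, 0.0668 to 0.441, against 0.0664%) and 4 with 10RA (0.172%, against 0.125%), where the first interval only just clears the share of all regions and the second takes it in. In each library these are 11 regions or fewer. Gained regions were also wider, with a median of 554 bases against 307 over all merged regions, and the part of width was not tested. The regions listed in all 4 libraries met ASXL1 peaks of that limit in 0.498% with 1-590 and 0.483% with 10RA. For BAP1 their shares were 0.327% and 0.405%. The gained regions were thus not above the regions of all 4 libraries in any ChIP library. One of the 11 was the promoter of Pgk1, a glycolytic enzyme gene, with H2AK119ub folds of 4.22, 5.58 and 5.18 and ASXL1 peaks with both 1-590 and 10RA. Another 3 lay in introns of Mid1, Dnai3 and the overlapping genes Fgfr2 and Tacc2. The other 7 lay between genes, nearest to Lrrc4c, Myo9b, Zfp709, Xcr1, Plac9, Ccl28 and Slc6a19. Those near Lrrc4c, Myo9b and Zfp709 and that in Mid1 met such peaks in all 4 ChIP libraries. The region near Lrrc4c also met all 4 lists of the second set and held 128, 70 and 63 summit fragments with 1-590, 10RA and 25RA, the highest number with 1-590 among the 2328 regions. Of the 11 regions, those in Mid1, in Fgfr2 and Tacc2 and near Lrrc4c held sequence words with a median of 2 copies in the genome. The rest of the 11 had a median of 1. Over all gained regions the median exceeded 1 in 26 of 2328. The part of repeat copies in these overlaps was not tested. Peaks at one site with every antibody and construct are given here as recorded, and their source was not tested.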

How the data were processed

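H2AK119ub CUT&RUN and ChIP-seq narrow peak lists of 12 libraries, 1 per condition, were used as deposited. Per the submitters' processing notes, reads were handled with fastp 0.24.0, Bowtie2 2.5.4, SAMtools and Picard and peaks were called with MACS3 3.0.3 on mm39. Control libraries and settings of the caller are not given in the sources used here. A spike-in of E. coli reads served to normalize CUT&RUN, per the labels, whereas whole summit fragments and a local background could be recovered from every peak of the deposited lists. Per peak the authors deposited a fold enrichment at the summit (a ratio), −log10 p and −log10 q values, and a score, which was not used. The lists reach p of 0.001. Folds depend on the depth of their own library and are set side by side without a comparison of levels.

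Merged regions were assigned by their midpoint to a promoter, exon, intron or the space between protein-coding genes of GENCODE vM39 on GRCm39. The chance of a call at the vector's depth came from binomial thinning of the recovered fragments. CpG content and motifs were read from GRCm39, and copy number is the median genome count of a region's 32-base words. Intervals are 95% Wilson intervals. No test was made, because there is 1 library per condition and the rule used these lists. Scripts ran in Python 3.11.15 with NumPy 2.4.6, SciPy 1.17.1 and pandas 2.3.3, and the recovery and merging were tested on simulated data. The members and gene lists were chosen with earlier results of these data known.

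Named regions are the leading 12 at promoters and 6 each in exons, introns and between genes by the lowest of the 3 folds, the members at promoters of listed genes, the 6 widest, those meeting all 4 lists of the 1-1067 set or a ChIP peak of q 0.05 or less, genes with 3 or more, and the 5 weakest and 5 nearest to a vector peak. Of 616 listed symbols 612 were found. Left out were 167 peaks on other sequences, and some listed genes are not reported here.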

Additional observations from a re-analysis of the deposited data

Results flagged for a closer look

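Outside chromosomes 1 to 19, X and Y, on unplaced sequences that no comparison above uses, 11 merged regions were listed with 1-590, 10RA and 25RA and not with vector. These sequences held 54 merged regions in all, from 47, 44 and 46 peaks with the 3 constructs and 30 with vector, and none was listed in vector alone. They are given as values only.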

How the results depend on the processing

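Of 46 alternatives over 13 results, 31 stayed within the limits set for them and 15 moved. The 2328 regions became 1235 when construct peaks had to reach a −log10 p of 5, and 835.2 were expected at the vector's depth. Without the requirement of a 1-590 peak there were 4410, without that of 10RA 5449 and without that of 25RA 4516. The promoter share of 45.8% was 37.6% with promoters of 1 kb and 53.3% with 5 kb, and the share of promoter genes with another vector peak was 32.5% with 5 kb. With peaks of q 0.05 or less in the 1-1067 set, the shares met by 1-1067, 34DN, 36EQ and vector were 2.75%, 1.46%, 2.92% and 1.93%. For BAP1 ChIP with 10RA that limit gave 0.172%, and peaks within 1000 bases raised the ASXL1 ChIP share with 1-590 to 1.12%. The median CpG ratio was 0.485 over the merged interval itself. The counts with high computed chance and the copy counts were chosen after seeing the data. No paired analysis was possible because each condition is 1 library. Lower depth of the vector library limits what its missing peaks show, and with 1 library per condition the spread between cultures is unknown.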
